A study of Homo sapiens with 6 samples.

Results

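The annexins are a family of calcium-dependent phospholipid-binding proteins, and 9 of their genes (ANXA1 to ANXA8 and ANXA11) were followed here among the 31582 genes of the deposited count table. Their rows were taken by gene symbol, and the list of members was chosen with earlier results of these data known. All 9 were found, and all 9 passed the filter on low counts that left 16394 genes for testing. The cells were MDA-MB-231, an established human breast cancer line without hormone receptors, grown in serum-containing medium and collected before confluence. The study set 3 libraries of polyadenylated RNA from cells carrying an shRNA against CALR, the gene of the endoplasmic reticulum chaperone calreticulin, against 3 libraries from control cells of the same line, labelled NTC. The labels leave unstated whether each library had its own culture, whether the lines were clones and which shRNA sequence was used, so p-values measure only the spread between these libraries.

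An annexin has a conserved core that binds acidic phospholipids, such as phosphatidylserine, when calcium is present, and a variable N-terminal tail that sets its partners, among them small EF-hand proteins of the S100 family. Annexins take part in the repair of the plasma membrane, in vesicle traffic and in the link between membrane and cytoskeleton. Annexin A2 together with S100A10 also gathers plasminogen and its activator at the cell surface, and annexin A5 is the familiar probe for phosphatidylserine on dying cells. Calreticulin itself binds calcium in a different compartment, and the comparison with the knockdown asks which transcripts differ once it is reduced.

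Library totals lay between 34639090 and 42425310 reads. Values of single libraries are given in the order of replicates 1, 2 and 3. CALR was at 493, 66.4 and 110 CPM (read counts scaled to a common library size with TMM factors) under knockdown and at 1213, 979 and 926 CPM in the controls. The knockdown was therefore deepest in replicate 2, at 6.39% of the control mean, and shallowest in replicate 1, at 47.5%. Markers of the line (VIM, CD44, AXL and KRT18) were present in all 6 libraries. VIM itself was higher under knockdown, at 3177, 2491 and 2759 CPM against 1840, 1839 and 1697 CPM in the controls. KRT18 lay between 154 and 223 CPM. ESR1 stayed at or below 0.596 CPM and CDH1 at or below 1.14 CPM. PGR was low but somewhat higher, between 0.617 and 2.03 CPM. Of 5 markers of blood, liver and endothelial cells, PTPRC had at most 11 reads in a library, CD3E at most 1 and ALB at most 2, HBB was not analysed here, and the endothelial marker PECAM1 was low, at 1.71 to 4.17 CPM in knockdown and 0.848 to 1.56 CPM in control libraries. In an RNA pool of this kind, fewer cells of a type and less RNA per cell cannot be told apart.

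The promoters of 4 members are shown. ANXA6 and ANXA11 are the members whose knockdown levels stood furthest above the controls. ANXA2 and ANXA1 are abundant, and their knockdown libraries fell on both sides of the controls. ANXA5 was like them in this, but its window, with 78.8% G and C and 31 CG dinucleotides, is not shown. Each window is the 250 bases before the RefSeq start site (GRCh38.p14), written 5′ to 3′ on the gene's strand. ANXA6 is on the minus strand at chr5:151157780-151158029, ANXA11 on the minus strand at chr10:80205538-80205787, ANXA2 on the minus strand at chr15:60397987-60398236 and ANXA1 on the plus strand at chr9:73151615-73151864. Capitals mark matches to the motifs named in the next paragraph.
ANXA6: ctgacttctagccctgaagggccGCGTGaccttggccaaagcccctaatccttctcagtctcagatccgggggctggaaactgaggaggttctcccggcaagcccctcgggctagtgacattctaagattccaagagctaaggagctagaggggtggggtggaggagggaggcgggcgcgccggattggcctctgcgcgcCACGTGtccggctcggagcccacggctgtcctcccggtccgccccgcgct
ANXA11: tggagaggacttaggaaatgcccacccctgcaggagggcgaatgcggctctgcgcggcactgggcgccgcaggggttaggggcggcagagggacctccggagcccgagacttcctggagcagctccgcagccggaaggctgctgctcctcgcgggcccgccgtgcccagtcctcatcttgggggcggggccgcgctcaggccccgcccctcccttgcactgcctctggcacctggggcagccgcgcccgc
ANXA2: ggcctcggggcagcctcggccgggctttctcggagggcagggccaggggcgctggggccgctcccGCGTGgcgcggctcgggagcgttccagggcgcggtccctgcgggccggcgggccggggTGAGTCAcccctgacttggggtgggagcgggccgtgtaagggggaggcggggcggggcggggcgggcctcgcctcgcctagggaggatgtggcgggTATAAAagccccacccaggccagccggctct
ANXA1: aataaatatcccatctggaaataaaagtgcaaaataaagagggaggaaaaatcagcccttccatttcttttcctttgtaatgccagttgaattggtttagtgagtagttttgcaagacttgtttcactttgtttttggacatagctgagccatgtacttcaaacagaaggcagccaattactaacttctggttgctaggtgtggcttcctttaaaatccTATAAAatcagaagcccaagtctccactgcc

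The motifs searched, on both strands, were the core of the hypoxia response element (ACGTG or GCGTG), the E-box CACGTG, the TCF/LEF motif (CTTTGAT or CTTTGAA) and the AP-1 motif TGAGTCA, with the TATA box TATAAA on the gene's strand only. They were chosen after the values were seen. The ANXA6 window held 1 E-box, 45 to 50 bases before the start, which contains the ACGTG core on both strands, and 1 separate GCGTG. The window of a second, inner RefSeq start of ANXA6 held no E-box, only GCGTG and its reverse complement. Among 34943 RefSeq windows of the same length, 6.32% held the E-box, 18.5% an ACGTG and 32.2% a GCGTG. The ANXA11 window shown had no match, and the windows of its other 2 RefSeq starts each held a GCGTG or its reverse complement. The window at chr10:80205809-80206058 also held a TATAAA, 56 to 61 bases before the start. ANXA4 was the other member with an E-box, in the window of 1 of its starts. ANXA1 and ANXA2 shared a TATAAA, 26 to 31 bases before the start, which 6.82% of all windows held, and ANXA2 also had a TGAGTCA (4.22% of windows) and a GCGTG. No TCF/LEF match was found in any of the 4, a motif held by 5.96% of all windows. The ANXA1 window differed in composition from the others shown, with 38.4% G and C and 0 CG dinucleotides, against 65.6% and 19 for ANXA6, 73.6% and 22 for ANXA11 and 78.0% and 28 for ANXA2 (median over all windows 58% G and C). A match is only a run of letters and does not show binding.

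The annexin transcripts spanned 3 orders of abundance. Levels of different genes were compared per length, as the authors' FPKM values (reads scaled by transcript length and library size). ANXA2, which tethers S100A10 at the membrane, was the highest, at 736 ± 24.2 FPKM in control libraries (SD, n = 3), the rank 54 among the 31356 genes of that table. ANXA5 followed at 375 ± 26.7 FPKM and ANXA1, a substrate of growth factor receptor kinases and an anti-inflammatory ligand, at 306 ± 6.22 FPKM. These 3 genes made up 81.4% to 84.8% of the summed FPKM of the family in control libraries and 79.7% to 80.9% in knockdown libraries. The group ranges of this share did not overlap, but the highest knockdown library (80.9%) was close to the lowest control (81.4%). Among single tested genes, groups did not overlap for 11.3% (higher) and 11.2% (lower). The share also depends on the levels of the other members, and it was not tested.

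A middle tier held ANXA3 at 97.4 ± 11.8 FPKM, ANXA6 at 82.0 ± 17.4 FPKM and ANXA7, which takes part in granule secretion, at 59.7 ± 2.03 FPKM in controls. ANXA4, found mainly in epithelia, was at 20.7 ± 1.89 FPKM and ANXA11, which couples RNA granules to lysosomes, at 17.5 ± 1.19 FPKM. ANXA8 was close to the floor, at 0.57 ± 0.349 FPKM. Among the control libraries, only ANXA3 and ANXA6 overlapped as neighbours in this order. Among the knockdown libraries, ranked by their own means, ANXA5 overlapped with ANXA1 and ANXA6 with ANXA3, and no other neighbours did. By knockdown means ANXA6 stood above ANXA3, at 135 ± 32.6 against 95.3 ± 20.4 FPKM, and ANXA11 above ANXA4, at 22.2 ± 1.55 against 17.9 ± 2.35 FPKM.

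**Figure D1:**
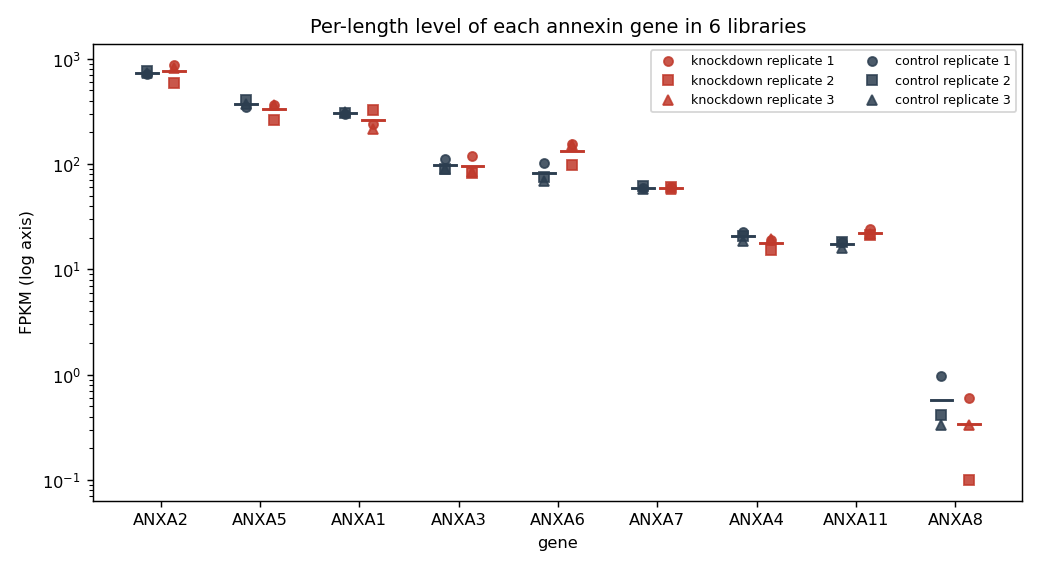
FPKM (log axis) of each annexin gene in the 3 knockdown libraries (red) and 3 control libraries (dark), ordered by control mean; short bars are group means. ANXA2, ANXA5 and ANXA1 are the highest with control means of 736, 375 and 306 FPKM, ANXA8 the lowest with 0.57 FPKM, and only ANXA11 has all knockdown points above all control points.

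In the comparison of knockdown with control, ANXA6 and ANXA11 had the highest log2 fold changes of the family, and the 95% intervals of the other 7 members included 0. ANXA6, whose annexin core is duplicated, had 1.81 times the control level, and ANXA11 had 1.39 times. No member passed the adjusted threshold of 0.05 in edgeR's quasi-likelihood test: 0 of 9, with adjusted p-values from 0.219 to 0.950, where 0% of all 16394 genes passed. DESeq2 also called 0 of 9, with an adjusted p of 0.0603 for ANXA6, where it called 3.23% of all genes. CALR, the targeted gene, did not pass either, although its knockdown mean was 21.5% of the control mean. Its adjusted p was 0.209 in edgeR and 0.159 in DESeq2. The lack of a call therefore does not show that a member was unchanged. With p-values left unadjusted, 2 of 9 members were higher at the 0.05 level, against 8.17% of all genes tested, and 0 were lower, against 7.36%. The groups did not overlap for 1 member, ANXA11, which was higher, against 11.3% of genes higher without overlap, and 0 were lower in this way, against 11.2%. The median log2 fold change of the 9 members was 0.10, and that of all genes −0.00072.

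ANXA6 was at 477, 270 and 485 CPM under knockdown and at 289, 208 and 185 CPM in the controls. Knockdown replicates 1 and 3 were above every control at 210% and 213% of the control mean, and knockdown replicate 2, at 119%, lay below control replicate 1. The log2 fold change was 0.85 ± 0.26 (SE, 3 against 3; 95% interval 0.26 to 1.45), with edgeR p-values of 0.0104 unadjusted and 0.219 adjusted. The gene ranked at place 779 of 16394 by p. Leaving out knockdown replicate 2 gave 1.08 with an edgeR adjusted p of 0.0174, where 7.76% of all genes were called higher in that fit. Without a low-count filter it was 0.87 with an edgeR adjusted p of 0.0029, where 1.36% of genes were called higher. That fit gave genes of unlike spread nearly the same SE, 0.21 for ANXA1 and ANXA6 and 0.22 for CALR. With the filter these were 0.16, 0.26 and 0.64. The p-values of the unfiltered fit, here and below, therefore do not follow each gene's own spread between libraries. Knockdown replicate 2, with the least CALR, had the lowest ANXA6 of the 3 knockdown libraries. Replicate 3, with the next lowest CALR (110 CPM), had the highest ANXA6. Whether ANXA6 follows the depth of the knockdown was not tested.

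ANXA6 (ENSG00000197043.13) lies on chromosome 5 at 151100712 to 151157882 of GRCh38, minus strand, with 30 separate exon blocks in GENCODE 29 and no exon base shared with another gene. Its longest transcript had 56.0% G and C, the highest of the 9 members. ANXA8, with a negative log2 fold change, had 54.8% and ANXA11 52.3%. The lowest were ANXA4 at 38.9% and ANXA1 at 39.3%. Libraries differed in how levels followed GC content: log2 CPM moved by 0.15, −0.21 and 0.27 per 10 percentage points of GC in knockdown replicates 1 to 3, and by −0.058, −0.018 and −0.13 in control replicates 1 to 3. With each library's GC trend removed, the log2 fold change of ANXA6 was 0.68 and that of ANXA11 0.37, with edgeR adjusted p-values of 0.161 and 0.194. In that fit ANXA1 changed sign, from −0.12 to 0.12.

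ANXA11 was at 196, 157 and 186 CPM under knockdown and at 139, 133 and 116 CPM in the controls. All 3 knockdown libraries stood above all 3 controls, and replicate 2 was again the lowest of the knockdown libraries. The log2 fold change was 0.48 ± 0.16 (SE; 95% interval 0.11 to 0.84), with edgeR p-values of 0.0159 unadjusted and 0.233 adjusted. By an exact permutation test (two-sided, on log2 CPM) p was 0.1, and 3 libraries against 3 cannot give a smaller one. Leaving out knockdown replicate 2 gave a log2 fold change of 0.57 with an edgeR adjusted p of 0.0302, where 7.76% of all genes were called higher. ANXA11 (ENSG00000122359.17) lies on chromosome 10 at 80150889 to 80205572 of GRCh38, minus strand, with 21 exon blocks and no exon base shared with another gene.

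**Figure D2:**
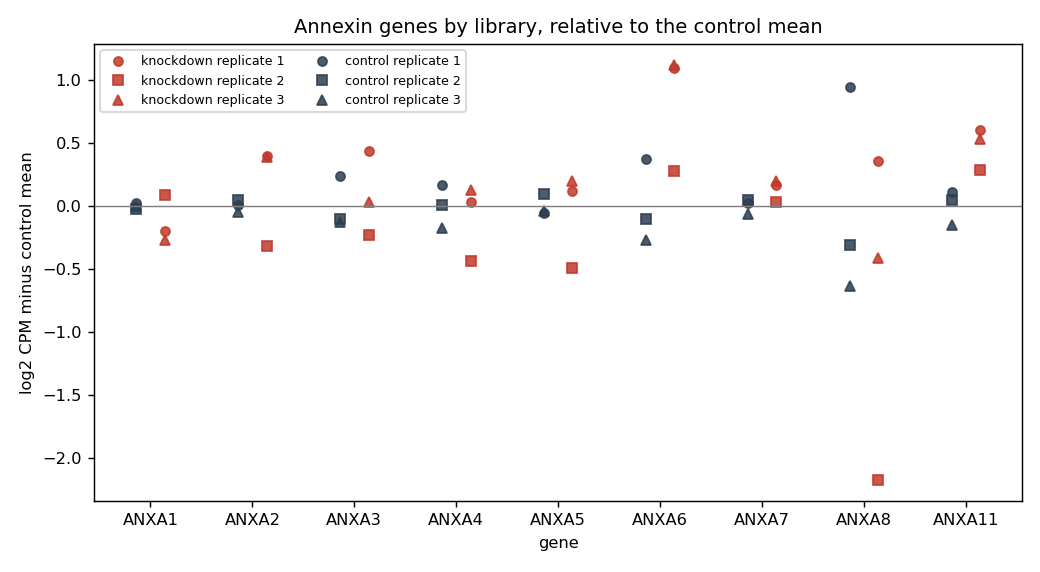
Difference of log2 CPM (prior count 2) from the control mean for each annexin gene; red points are knockdown and dark points control libraries, with 1 marker shape per replicate number. ANXA6 is 1.09 and 1.12 above the control mean in knockdown replicates 1 and 3 and 0.28 above it in replicate 2, and the square of knockdown replicate 2 is the lowest point for ANXA2, ANXA3, ANXA4, ANXA5 and ANXA8.

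The 3 most abundant members did not stand apart from the controls. ANXA2 was at 1871, 1137 and 1861 CPM under knockdown and at 1427, 1464 and 1373 CPM in the controls. Knockdown replicates 1 and 3 were above all controls and replicate 2 below all controls, so that the knockdown SD, 421 CPM, far exceeded the control SD of 45.7 CPM. The log2 fold change was 0.19 ± 0.21 (95% interval −0.29 to 0.67), and 0.40 without knockdown replicate 2, with an edgeR adjusted p of 0.0552. With library size alone in place of TMM factors it was 0.037, where the median of all genes moved to −0.13.

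ANXA5 was at 732, 479 and 774 CPM under knockdown and at 650, 722 and 656 CPM in the controls. Replicate 2 was again below all controls while the other 2 knockdown libraries were above them. Its log2 fold change was −0.032 ± 0.20 (95% interval −0.49 to 0.43), which turned to 0.16 without knockdown replicate 2 and to 0.02 without control replicate 2. ANXA1 ran the other way, at 649, 791 and 617 CPM under knockdown and at 757, 733 and 745 CPM in the controls. Knockdown replicate 2 was above all controls and replicates 1 and 3 below them. The controls of ANXA1 differed by only 1.57% (SD over mean) and the knockdown libraries by 13.5%, and the log2 fold change was −0.12 ± 0.16 (95% interval −0.48 to 0.24).

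The intervals of ANXA3, ANXA4 and ANXA7 also included 0. ANXA3 was at 241, 152 and 182 CPM under knockdown and at 210, 165 and 163 CPM in the controls. The knockdown range enclosed the control range, and the log2 fold change of 0.10 ± 0.21 changed sign to −0.044 with library size alone and to −0.099 without knockdown replicate 1. ANXA4 was at 46.8, 33.8 and 49.9 CPM in knockdown replicates 1 to 3 and at 51.3, 46.1 and 40.5 CPM in control replicates 1 to 3. Only knockdown replicate 2 lay outside the control range, below it, and the log2 fold change of −0.08 ± 0.20 turned to 0.076 without that library and to 0.24 with the GC trend removed.

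ANXA7, the member with the smallest SE, was at 168, 153 and 171 CPM under knockdown and at 152, 155 and 143 CPM in the controls. Knockdown replicate 2 fell inside the control range. The log2 fold change was 0.13 ± 0.14 (95% interval −0.19 to 0.46), and −0.0055 with library size alone. The interval of ANXA7 was the narrowest of the 9. The exons of ANXA7 share 3.67% of their bases with AL512656.1 on the opposite strand, and whether the counts were made by strand is not given in these sources.

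**Figure D3:**
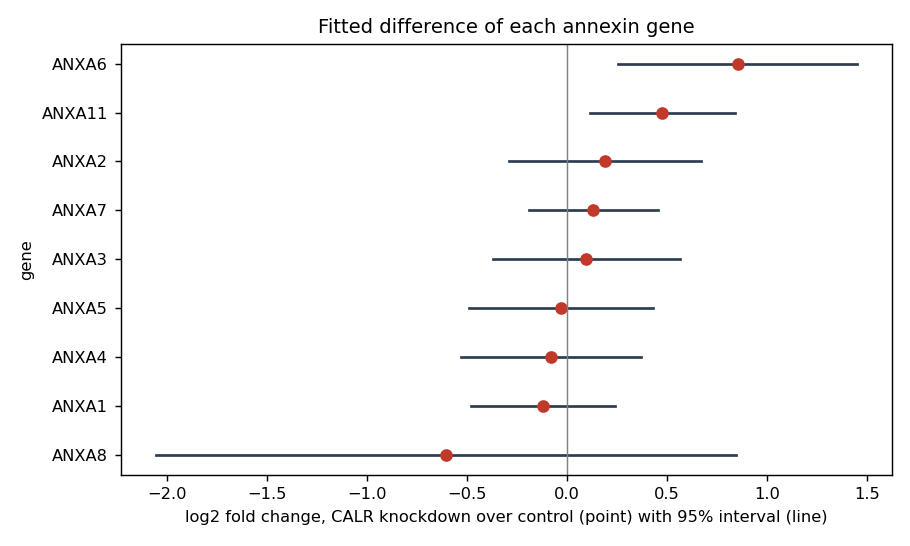
Log2 fold change of each annexin gene, CALR knockdown over control, from edgeR (points) with 95% intervals (lines), ordered by value. The intervals of ANXA6 (0.26 to 1.45) and ANXA11 (0.11 to 0.84) lie above 0 before adjustment, and the interval of ANXA8 is the widest.

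ANXA8 was low throughout and its count is uncertain. It had 94, 17 and 58 reads under knockdown and 154, 61 and 58 in the controls. Control replicate 1 was the highest and knockdown replicate 2 the lowest, and the other libraries overlapped. The log2 fold change of −0.60 ± 0.64 (95% interval −2.05 to 0.84) turned to 0.05 without control replicate 1 and was −1.25 without knockdown replicate 1. ANXA8 lies on chromosome 10 at 47460162 to 47484158, minus strand, and has a near-identical copy, ANXA8L1, on the plus strand of the same chromosome at 46375627 to 46391784. The closest pair of their GENCODE 29 coding transcripts was the same at 99.4% of 2175 aligned positions, so reads could not be assigned between them with certainty. With both rows summed, an alternative chosen after seeing the data, the lowest library was knockdown replicate 2 (0.894 CPM), the highest control replicate 1 (6.53 CPM), and the log2 fold change −0.61.

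A copy problem of another kind concerns ANXA2, whose processed pseudogene ANXA2P2 matched an ANXA2 transcript at 98.4% of 1021 positions and ANXA2P1 at 93.6% of 929. The deposited counts of these copies were nevertheless at most 10 reads for ANXA2P2 and 3 for ANXA2P1 in a library, against 45775 to 69368 for ANXA2. Among the other annexin genes, ANXA9 had 2 to 5 reads, ANXA13 at most 1, and ANXA10, a gene of gastric epithelium, 2, 77 and 19 reads under knockdown and 11, 12 and 18 in the controls. The ANXA10 values of knockdown replicate 2 stood above all other libraries and those of replicate 1 below all others. Of a list of 8 further genes, namely annexin genes, copies and the annexin A2 receptor gene ANXA2R, 3 were tested (ANXA8L1, ANXA10 and ANXA2R), and 0 had an unadjusted p under 0.05.

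Knockdown replicate 2 was the lowest of the 6 libraries for 5 of the 9 members, namely ANXA2, ANXA3, ANXA4, ANXA5 and ANXA8, and the highest for 1, ANXA1. Over all tested genes knockdown replicate 2 was the lowest library for 22.1% and the highest for 19.0%, and replicate 3 was the lowest for 23.3%. Knockdown libraries differed more than controls over all tested genes. The chi-square per gene between 2 libraries, counts against those expected from library totals, was 105 to 199 for knockdown. For controls it was 11.8 to 48.1. The median member was 0.35, −0.23 and 0.20 from the control mean in knockdown replicates 1 to 3 on the log2 CPM scale, and 0.11, 0.01 and −0.13 in control replicates 1 to 3. The share of all reads that fell on the 9 genes was 0.411%, 0.333% and 0.380% under knockdown and 0.376%, 0.382% and 0.367% in the controls. The knockdown libraries lay on both sides of the controls in this share, and knockdown replicate 2 was the lowest of all.

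The balance of ANXA6 to ANXA1 differed among libraries. Their CPM ratio was 0.734, 0.342 and 0.786 under knockdown and 0.382, 0.284 and 0.248 in the controls. Replicates 1 and 3 were above all controls and replicate 2 lay between control replicates 1 and 2. As a description, the genes outside the family whose log2 CPM followed ANXA6 most closely over the 6 libraries were RCC1, a nucleotide exchange factor of the GTPase Ran, and CRTAP, a partner in collagen hydroxylation, both with a Pearson r of 0.999. For ANXA11 they were CNN2, an actin-binding calponin (0.996), and FAAP100, a subunit of the Fanconi anaemia core complex (0.993), and for ANXA8 CTBP1-AS2 and TMCO3 (both 0.98). They were the closest of 10214 genes searched with 6 points each, and the points share library depth and GC trend.

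**Figure D4:**
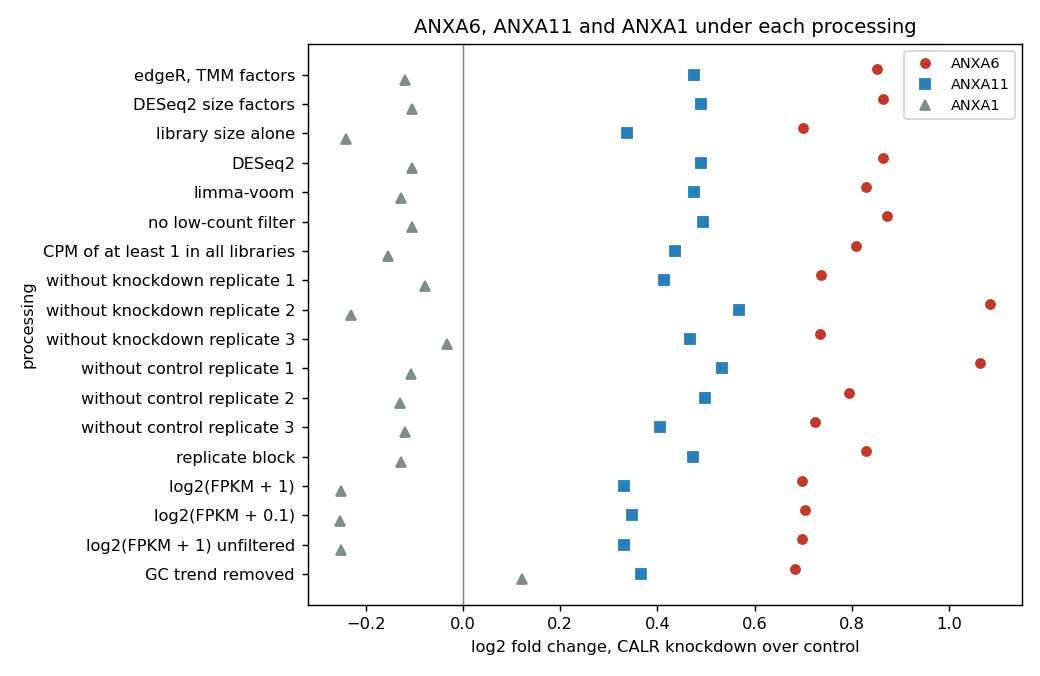
Log2 fold change of ANXA6 (circles), ANXA11 (squares) and ANXA1 (triangles), CALR knockdown over control, under edgeR with TMM factors (top line) and under each other processing. ANXA6 lies between 0.68 and 1.08 and ANXA11 between 0.33 and 0.57 throughout, and ANXA1 is above 0 only with the GC trend removed.

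The EF-hand partners of annexins had positive log2 fold changes in 6 of 6 tested genes, against 49.9% of all genes. That of PDCD6 was only 0.0098 ± 0.19, and the 95% interval of S100A4 included 0 (−0.19 to 1.82). By unadjusted p, 4 were higher (8.17% of all genes) and 0 lower (7.36%) at the 0.05 level, and 0 passed after adjustment in edgeR. DESeq2 called 1, S100A6 (adjusted p = 0.0166), where it called 3.23% of all genes. The edgeR fit with no low-count filter called 3, where 3.13% of all genes passed, and the fit without knockdown replicate 2 called 4, where 15.5% did. Their median was 0.65, against −0.00072 over all genes, and 0.43 without knockdown replicate 1. S100A10, the light chain bound to annexin A2, was at 886, 429 and 650 CPM under knockdown and at 368, 404 and 377 CPM in the controls. All knockdown libraries were above all controls, replicate 2 only narrowly, and the log2 fold change was 0.77 ± 0.25, or 0.50 without knockdown replicate 1. S100A6, a ligand of annexin A11, was at 1872, 1671 and 1903 CPM against 1264, 1233 and 1128 CPM.

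The S100A6 groups did not overlap, with replicate 2 close to the other 2 knockdown libraries (log2 fold change 0.59 ± 0.15, edgeR adjusted p = 0.192). S100A11, the partner of annexin A1, was at 1074, 708 and 1735 CPM under knockdown and at 689, 765 and 680 CPM in the controls. Knockdown replicate 2 lay within the controls, and the log2 fold change of 0.72 ± 0.29 was 0.34 without knockdown replicate 3. S100A10 therefore stood apart from the controls in a comparison where ANXA2 did not. The difference between the 2 genes was not tested.

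Annexin A2 and S100A10 serve plasmin generation at the cell surface. Log2 fold changes of its genes were positive for 7 and negative for 1 of 8 tested, where 49.9% of all genes were positive. Of 8 tested genes, which include S100A10, unadjusted p-values put 4 higher and 1 lower at the 0.05 level (8.17% and 7.36% of all genes), and 0 passed after adjustment in edgeR. DESeq2 called 3 of them (3.23% of all genes), with adjusted p-values of 0.00061 for PLAU, 0.00097 for SERPINE2 and 0.0443 for PLAUR. In edgeR, 4 passed with no low-count filter (3.13% of all genes) and 6 without knockdown replicate 2 (15.5%). Their median was 0.50, which was 0.32 without knockdown replicate 1, 0.77 without replicate 2 and 0.18 to 0.32 on the FPKM scale. PLAU, which encodes the activator urokinase, was at 347, 183 and 290 CPM in knockdown replicates 1 to 3 and at 138, 91.2 and 89.0 CPM in control replicates 1 to 3. The groups were apart, with replicate 2 again nearest to the controls, and the log2 fold change was 1.36 ± 0.27 (edgeR adjusted p = 0.149). The receptor gene PLAUR was at 452, 210 and 486 CPM against 177, 215 and 196 CPM, with replicate 2 inside the control range. The protease inhibitor SERPINE2 was lower in all 3 knockdown libraries, at 22.9, 22.2 and 42.0 CPM against 75.6, 66.5 and 67.6 CPM (log2 fold change −1.27 ± 0.26, edgeR adjusted p = 0.149). PLG, the gene of plasminogen itself, had at most 10 reads in a library.

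Plasma membrane repair genes, in which annexins A1, A2 and A6 act at the wound, had a median log2 fold change of 0.23 over 20 tested genes, and 0.078 with library size alone. Unadjusted, 3 of 20 were higher and 1 lower at the 0.05 level, near the 8.17% and 7.36% of all genes. None passed after adjustment in edgeR or DESeq2 (0 of 20), and 5 of 21 did without knockdown replicate 2, where 15.5% of all genes passed. The calpain subunit CAPN2, a calcium-activated protease, was at 694, 583 and 648 CPM against 503, 393 and 400 CPM, with the groups apart. The ferlin MYOF was at 364, 394 and 261 CPM against 274, 227 and 243 CPM, where knockdown replicate 3 fell inside the control range. CHMP2B, a subunit of the membrane-cutting ESCRT-III complex, was lower in all 3 knockdown libraries, at 44.6, 56.5 and 48.9 CPM against 76.4, 71.2 and 78.0 CPM. Its log2 fold change of −0.59 ± 0.16 was −0.19 with the GC trend removed.

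Of 10 tested scramblases and flippases, which set how much phosphatidylserine faces outward, 1 was higher and 0 lower by unadjusted p at the 0.05 level, near the background of 8.17% and 7.36%. That gene was the caspase-activated scramblase XKR8, at 36.5, 26.3 and 37.5 CPM against 17.6, 26.8 and 23.6 CPM, where knockdown replicate 2 lay inside the control range. Among 5 kinases and signal proteins that bind or phosphorylate annexins, 1 was higher and 1 lower at that level, against the same background. EGFR, the receptor kinase that phosphorylates annexin A1, was lower in all 3 knockdown libraries, at 99.5, 128 and 109 CPM against 220, 180 and 202 CPM (log2 fold change −0.84 ± 0.17, edgeR adjusted p = 0.149). EGFR passed in DESeq2 (adjusted p = 0.00298), where 3.23% of all genes passed. In edgeR it passed without knockdown replicate 2 (adjusted p = 0.0151), where 15.5% did. It also passed in edgeR with no low-count filter (adjusted p = 0.00571), where 3.13% did and p-values do not follow each gene's own spread. PRKCA, a kinase that binds annexin A6, was at 75.1, 83.1 and 57.7 CPM against 59.3, 46.5 and 49.3 CPM (0.48 ± 0.19, and 0.30 on the log2(FPKM + 1) scale). Of the formyl peptide receptors that annexin A1 can bind, FPR1 had 46, 0 and 60 reads under knockdown and 12, 7 and 5 in the controls, so that knockdown replicate 2 was below all controls and the others above them. FPR2 had at most 1 read in a library, and PLA2G4A, the cytosolic phospholipase linked to annexin A1, had a log2 fold change of −0.031 ± 0.25.

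**Figure D5:**
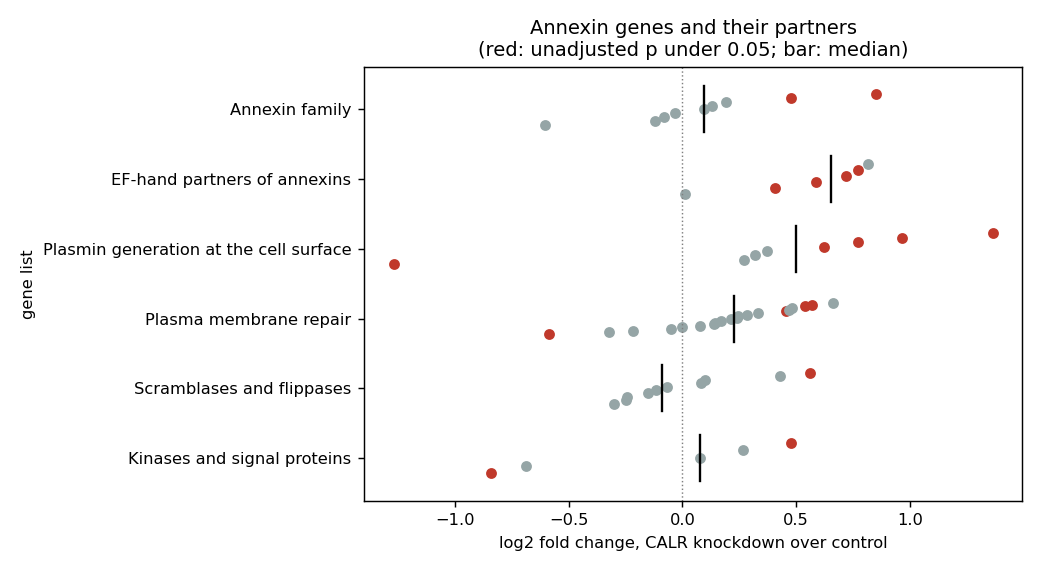
Log2 fold change, CALR knockdown over control, of each tested gene of the annexin family and of 5 lists of partner genes; red points have an unadjusted p under 0.05 and bars are medians. The medians are 0.10 for the annexin family, 0.65 for the EF-hand partners and 0.50 for the plasmin genes, and no point passed the adjusted threshold.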

How the data were processed

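RNA of 6 MDA-MB-231 libraries was measured as reads per gene. The authors deposited whole-number read counts and FPKM values rounded to 2 decimals, 1 column per library. The submitters' processing notes name TopHat2, FastQC 0.9.5 and GRCh38. How reads were counted, by which annotation and whether by strand, is not given in the sources used here, so reads of overlapping or copied genes may be shared or lost.

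Counts were tested with edgeR 4.0.16 (R 4.3.3): filterByExpr, scaling by TMM, a quasi-likelihood test of knockdown against control over all 16394 genes, and Benjamini-Hochberg adjustment with a threshold of 0.05. The SE was taken from the log2 fold change and the F statistic. The members, the partner lists and the rule for named genes (the members, CALR, up to 3 list genes with the smallest unadjusted p, and 2 most similar genes for 3 members) were chosen with earlier results of these data known. Genes and reads named beyond that rule were chosen after their values were seen. CAVIN1 was read under its older symbol PTRF; ANXA2P3, FPR3, PLSCR3 and HBB were not analysed here. The fit was tested on simulated data. Alternatives used DESeq2 1.42.0, limma 3.58.1 (voom, log2(FPKM + 1), log2(FPKM + 0.1)), other scalings and filters, each library left out, a replicate block and removal of each library's lowess trend with GC content, which GENCODE 29 gave for 99.4% of tested genes. Coordinates are from GENCODE 29 and promoters from RefSeq, which held 8 of the 9 members.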

Additional observations from a re-analysis of the deposited data

How the results depend on the processing

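The count of members past the adjusted threshold, 0, was also 0 in 15 of 17 alternatives. It was 1 (ANXA6) with no low-count filter, a fit of 31582 genes where 3.13% of all genes passed. The p-values of that fit do not follow each gene's own spread. With 1 library left out the count was 0 to 2, the 2 being ANXA6 and ANXA11 without knockdown replicate 2. In the fit without that library 15.5% of all genes passed. The members' median of 0.10 lay between −0.079 and 0.18 with 1 library left out and between −0.044 and 0.25 under the other alternatives. ANXA2, ANXA6 and ANXA11 kept their sign in 17 of 17 alternatives. Sign changes were: for ANXA1, 0.12 with the GC trend removed; for ANXA3, −0.044 with library size alone, −0.044 with log2(FPKM + 1), filtered or not, −0.045 with log2(FPKM + 0.1), and −0.099 to 0.24 with 1 library left out; for ANXA4, 0.24 with the GC trend removed and −0.17 to 0.076 with 1 library left out; for ANXA5, −0.14 to 0.16 with 1 library left out; for ANXA7, −0.0055 with library size alone; for ANXA8, −1.25 to 0.050 with 1 library left out (0.050 without control replicate 1). The cause was not tested. The median of all genes moved to −0.13 with library size alone. ANXA8 could not be fitted where filters removed it. Deviations from the group means had correlations over genes of 0.20, −0.12 and −0.22 between same-numbered libraries, for numbers 1 to 3. Between differently numbered libraries they were −0.20 to 0.36. No common pairing by number was seen, but deviations from means of 3 libraries cannot exclude one. With the replicate block, 0 members passed and the smallest adjusted p among them was 0.222. Depth limits ANXA8, at 17 to 154 reads; the other members had at least 1362 reads in every library, so the spread between libraries limits their precision.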
